A study of Mus musculus with 3 samples.

Results

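Dbp, Tef, Hlf, Nfil3, Bhlhe40, Bhlhe41 and Ciart are transcription factors and repressors that carry the circadian clock's timing to other genes, and their transcripts were followed across the cell classes of mouse kidney. They were chosen by gene symbol, 7 of 32285 genes in the count tables, and each symbol matched 1 gene. The choice was made with earlier results of these libraries known, so every value below is a description. Whole kidneys of male mice aged 28 weeks were dissociated and profiled by droplet single-cell RNA sequencing in 3 groups. The first group was db/db mice on a diet with 60% fructose, the second was db/db mice on a fructose-free control diet, and the third was db/m mice on that control diet. Each diet ran for 20 weeks from the age of 8 weeks. Mice of the db/db genotype lack the long form of the leptin receptor in every cell and become obese and diabetic, whereas db/m mice keep 1 normal copy of the gene and stay lean. Each group gave 1 library. The number of mice behind a library and the time of day at which kidneys were taken are not given in the sources used here. A difference between libraries therefore has no replicate check, and diet or genotype cannot be told apart from the hour of collection or from the handling of that library. Hence nothing was tested, and the 95% intervals cover counting error only. Gene counts do not separate the long form of the leptin receptor transcript, so they give no check of the genotype.

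The clock is a loop in which BMAL1 (Arntl) with CLOCK or NPAS2 binds E-boxes, DNA sites with the core CACGTG, and switches on the Per, Cry and Nr1d genes, whose proteins then repress it. The same E-boxes drive output factors. Dbp, Tef and Hlf encode the PAR bZIP activators, which bind D-boxes in genes for metabolism and detoxification; Nfil3 encodes a repressor that competes for D-boxes; Bhlhe40 and Bhlhe41 (DEC1 and DEC2) encode repressors that compete for E-boxes; and Ciart (CHRONO) encodes a repressor that acts on BMAL1 with CLOCK. In mouse kidney and liver, Dbp is among the transcripts with the widest daily swing, and mice without Dbp, Tef and Hlf have kidney and cardiovascular defects.

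Promoter windows of 300 bases, from 250 before to 50 after the start site, were found in RefSeq (build GRCm38.p6) for 6 of the 7 genes, 7 windows in all. Those of Ciart, Tef, Bhlhe41 and Dbp are shown because Dbp, Ciart and Tef carried the largest differences below and Bhlhe41 did not. Both strands were searched for the E-box CACGTG, which is given in capitals, for the variant CACGTT and for the D-box spelled TTATGTAA or TTACGTAA. The Ciart window is chr3:95882179-95882478 on the minus strand. Both Tef windows are on the plus strand, the upstream one at chr15:81802423-81802722 and the downstream one at chr15:81811164-81811463. The Bhlhe41 window is chr6:145865371-145865670 on the minus strand, and the Dbp window is chr7:45704997-45705296 on the plus strand.
Ciart: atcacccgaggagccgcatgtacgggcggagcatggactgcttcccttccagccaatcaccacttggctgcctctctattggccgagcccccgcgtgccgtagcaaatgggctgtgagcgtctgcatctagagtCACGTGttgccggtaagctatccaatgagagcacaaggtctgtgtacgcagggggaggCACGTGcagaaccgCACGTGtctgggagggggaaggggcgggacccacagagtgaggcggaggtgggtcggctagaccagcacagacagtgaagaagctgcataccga
Tef, upstream start: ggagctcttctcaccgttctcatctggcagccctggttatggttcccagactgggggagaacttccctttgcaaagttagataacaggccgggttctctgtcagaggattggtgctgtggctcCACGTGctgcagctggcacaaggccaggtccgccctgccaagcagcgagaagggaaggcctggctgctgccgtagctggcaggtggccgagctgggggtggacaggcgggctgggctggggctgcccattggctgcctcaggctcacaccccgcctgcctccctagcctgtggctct
Tef, downstream start: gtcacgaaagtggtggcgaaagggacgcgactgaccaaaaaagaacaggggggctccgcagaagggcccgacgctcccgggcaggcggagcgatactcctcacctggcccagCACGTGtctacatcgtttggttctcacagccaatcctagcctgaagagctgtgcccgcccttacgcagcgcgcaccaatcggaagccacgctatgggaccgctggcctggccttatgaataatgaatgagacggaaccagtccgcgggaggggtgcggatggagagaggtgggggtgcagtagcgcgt
Bhlhe41: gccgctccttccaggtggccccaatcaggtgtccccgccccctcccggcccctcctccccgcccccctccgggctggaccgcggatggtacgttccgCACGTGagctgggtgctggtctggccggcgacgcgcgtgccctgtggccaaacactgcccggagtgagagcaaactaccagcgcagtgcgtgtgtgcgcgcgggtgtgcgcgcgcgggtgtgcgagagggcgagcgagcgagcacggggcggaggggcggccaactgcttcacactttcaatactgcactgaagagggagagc
Dbp: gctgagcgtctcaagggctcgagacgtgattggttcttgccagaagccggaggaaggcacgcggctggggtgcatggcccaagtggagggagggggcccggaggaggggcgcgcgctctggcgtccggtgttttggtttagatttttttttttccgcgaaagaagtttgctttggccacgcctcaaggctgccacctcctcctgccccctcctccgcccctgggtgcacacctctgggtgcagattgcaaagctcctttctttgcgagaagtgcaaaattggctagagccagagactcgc
The Ciart window held 3 E-boxes, starting 116, 58 and 44 bases before the start site. Of 32851 RefSeq windows of the same length, 7.15% held at least 1 E-box and 29 held 3 or more. Each Tef window held 1, at 127 bases before the upstream start and 138 before the downstream start, and the Bhlhe41 window held 1 at 153 bases. The Dbp, Hlf and Nfil3 windows held no E-box in these letters. No window of the 7 held CACGTT (4.685% of all windows) or the D-box letters (1.056%). A match in this search is a description of the letters and not a bound site.

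Sequencing gave 42028885 UMIs over 20383 barcodes for db/db fructose, 52704335 over 26513 for db/db control and 31660184 over 13524 for db/m. After filtering, 16049 db/db fructose, 16224 db/db control and 9940 db/m cells remained, with medians of 1531, 1628 and 1679 UMIs, so a gene of low level was seen in few cells of any kind. Barcodes shared by any 2 libraries made up between 1.28% and 2.51% of a library's kept cells. Cells were grouped into classes by marker genes, and the 6 described in full each had 100 cells or more per library: proximal tubule-like (8862, 6752 and 6053 cells), thick ascending limb-like, distal convoluted tubule-like, connecting tubule and principal-like, intercalated-like and endothelium-like. A class level is the summed UMI count of a gene per 1000000 UMIs of that class and library (CPM). The mitochondrial share of UMIs in proximal cells differed between the libraries, with 11.5% in db/db fructose, the highest share in db/db control and 18.2% in db/m. A scaling without those genes and a limit of 30% mitochondrial UMIs were tried as alternatives, and under the second, 13 of 14 proximal ratios moved by less than their counting intervals and Tef between the diets was 1.16 on the log2 scale. Unnamed clusters took 3.03% of db/db fructose, 17.7% of db/db control and 1.40% of db/m cells.

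Dbp, the most strongly rhythmic of the PAR bZIP activators, was the gene that differed most between the diets in proximal tubule-like cells. It stood at 29.9 CPM in the db/db fructose library (424 counts), 1.83 CPM in db/db control (21 counts) and 2.87 CPM in db/m (32 counts). The fructose library was thus far above both others, whose intervals overlapped. The ratio of db/db fructose to db/db control was 16.4-fold (log2 4.03, interval 3.40 to 4.74), the highest of the 8957 genes that reached 10 CPM in either library. Db/db control over db/m gave log2 -0.65 with an interval of -1.52 to 0.19. No proximal cell held more than 3 Dbp UMIs, and 4.39% of db/db fructose proximal cells held one, against 0.311% in db/db control and 0.496% in db/m. With each cell thinned to 1000 UMIs, leaving out 1298, 325 and 1144 shallower cells, the shares were 3.16%, 0.187% and 0.285%. Erythroid-like cells, which should lack the gene, gave 3 of 103, 0 of 112 (which allows up to 2.68%) and 1 of 132 cells, at median depths of 1311, 1912 and 1753 UMIs beside 1485.5, 1594 and 1511 in proximal cells. The erythroid-like share with fructose, 2.91%, has an interval of 0.605% to 8.28% that includes the proximal share, and in both other libraries the proximal share lay at or below what these cells allow. Shares of cells with a Dbp UMI are therefore not separated from background here. The summed counts hold the same UMIs, so this check does not separate them from background either. They are set beside a free RNA estimate further below.

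Ciart, the E-box repressor with 3 E-boxes in its window, stood at 18.6 CPM in db/db fructose proximal cells (263 counts), 1.74 CPM in db/db control (20 counts) and 1.17 CPM in db/m (13 counts). Again the fructose library was high and both others were low and overlapping. A Ciart UMI was held by 2.67%, 0.281% and 0.215% of proximal cells. Among erythroid-like cells 3 of 103, 0 of 112 and 0 of 132 held one. The erythroid-like share with fructose, 2.91%, has an interval of 0.605% to 8.28% that includes the proximal share. As for Dbp, this check does not separate proximal Ciart from background. The Ciart ratio of 10.7-fold between the diets (log2 3.42, interval 2.76 to 4.15) ranked next to that of Dbp among the 8957 genes. Between db/db control and db/m the log2 ratio was 0.58, with an interval of -0.50 to 1.71.

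Tef, the PAR bZIP activator with a shallower daily rhythm, stood at 615 CPM in db/db fructose proximal cells, 263 CPM in db/db control and 190.0 CPM in db/m, and here no intervals overlapped. The diets differed 2.34-fold (log2 1.23, interval 1.17 to 1.29), rank 103 of 8957, and the genotypes by a log2 ratio of 0.47. Scaling by size factors (medians of gene ratios) lowered every proximal log2 ratio between the diets by 0.27, and the Tef value was then 0.96. Leaving the mitochondrial genes out of the total lowered the ratios by 0.18.

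Hlf, the remaining PAR bZIP activator, did not follow Dbp and Tef in the proximal tubule. It stood at 216 CPM in both db/db libraries (3057 counts with fructose and 2479 on the control diet) and at 150.3 CPM in db/m (1677 counts). The log2 ratio was 0.00 between the diets (interval -0.08 to 0.08) and 0.52 between the genotypes. Of the repressors other than Ciart, none passed 1.5-fold between the diets. Nfil3, whose product opposes Dbp at D-boxes, was at 26.9, 32.3 and 46.1 CPM in db/db fructose, db/db control and db/m, lowest in the fructose library and highest in db/m. Bhlhe40 was at 147, 107 and 149 CPM, with db/db control below both others, and Bhlhe41 at 15.6, 17.3 and 15.3 CPM, with all intervals overlapping.

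**Figure D1:**
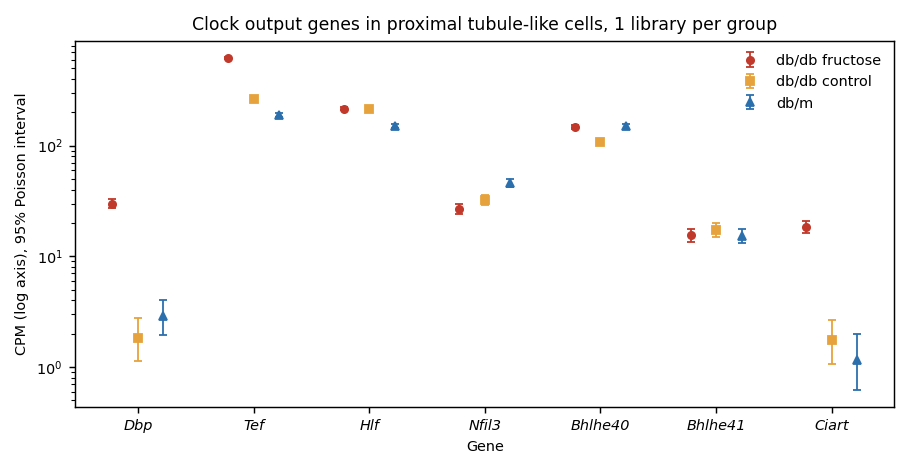
Level of each clock output gene in proximal tubule-like cells, in CPM on a log axis, for the db/db fructose, db/db control and db/m libraries (1 library each; bars are 95% Poisson intervals). Dbp reached 29.9 CPM and Ciart 18.6 CPM in the fructose library, against under 3 CPM in the other libraries, while Hlf and Bhlhe41 lay close together in both db/db libraries.

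Of the 7 genes, all measured at 10 CPM or more in a library, 3 were at least 1.5-fold higher in db/db fructose than in db/db control proximal cells and 0 were lower. Over all genes measured there, 11.8% were higher and 1.38% lower by that rule, and the median log2 ratio was 0.26, against 0.46 for the 7. The genes were chosen with these ratios known, so nothing is read from the count. Between db/db control and db/m, 5 of the 7 were measured and 0 passed 1.5-fold in either direction, beside 6.74% of all genes higher and 11.8% lower. With free RNA subtracted Tef (0.60) and Hlf (0.62) passed, and Bhlhe40 passed without doublet removal (-0.59) and as a mean over clusters (-0.77). Over all kept cells, where the class shares enter too, 3 of 7 were higher and 0 lower with fructose, beside 11.0% and 0.695%, and 0 of 5 were higher and 2 lower in db/db control than in db/m, beside 3.05% and 9.99%.

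The proximal class was made of 5 clusters that the libraries filled unevenly, and Tef was among the leading genes of one of them. The fructose library had most of its proximal cells in clusters 0 and 1, the db/db control library in 0 and 2, and the db/m library in 3 and 9. Within cluster 0, Dbp was at 52.8 CPM in db/db fructose and 2.79 CPM in db/db control cells. Within cluster 1 it was at 14.4 against 0.838 CPM, and within cluster 2 at 13.5 against 1.63 CPM. These db/db control values came from 11, 2 and 8 counts. The fructose library was high inside each of these clusters, and highest in cluster 0. Ciart was also highest in cluster 0, at 35.5, 7.30 and 8.79 CPM in clusters 0, 1 and 2 of the fructose library, against 2.54 CPM, 0 counts and 1.42 CPM in db/db control. Clusters 3 and 9 held few db/db cells. Dbp there had 10 and 2 counts with fructose against 0 and 0 in db/db control. Ciart had 2 and 0 counts with fructose against 2 and 1, so it was not higher with fructose in these clusters. All these intervals spanned 0. For Tef the log2 ratio between the diets lay between 0.61 and 1.15 over the 5 clusters, and their mean with equal weight was 0.88, below the pooled 1.23. The Tef difference between genotypes was 0.0043 as such a mean, against 0.47 pooled, and in cluster 9 it rested on 7 db/db control counts. Clustering the cells again without the 7 genes and the core clock genes left all 14 proximal ratios within their counting intervals.

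Beyond the proximal tubule, Dbp was higher in db/db fructose than in db/db control cells in all 6 classes compared, with every interval above 0. In thick ascending limb-like cells, which take up salt by Slc12a1, it was at 23.2, 2.54 and 6.37 CPM in db/db fructose, db/db control and db/m. Intercalated-like cells, which handle acid and base, gave 29.5, 3.22 and 3.08 CPM from only 21, 4 and 2 counts. In each of these classes the fructose library stood clear of both others. Endothelium-like cells gave 29.3, 6.71 and 4.67 CPM. The smallest ratio, 2.56-fold, was in connecting tubule and principal-like cells, at 23.1, 9.04 and 10.8 CPM, and the level in both control libraries was higher there than in their proximal cells. Distal convoluted tubule-like cells had the lowest fructose level, with 14.0 CPM against 1.79 in db/db control and 3.52 in db/m. Among the 3 db/db control values under 3 CPM, from proximal, thick ascending limb and distal convoluted cells, no order could be read, since their intervals overlapped. In mononuclear phagocyte-like cells, of which db/m had only 85, the 3 levels lay together at 7.54, 7.59 and 7.18 CPM from 6, 6 and 2 counts. Thin limb-like cells, 55, 29 and 66 in number, held 47, 3 and 7 Dbp counts, or 115, 15.4 and 14.4 CPM.

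**Figure D2:**
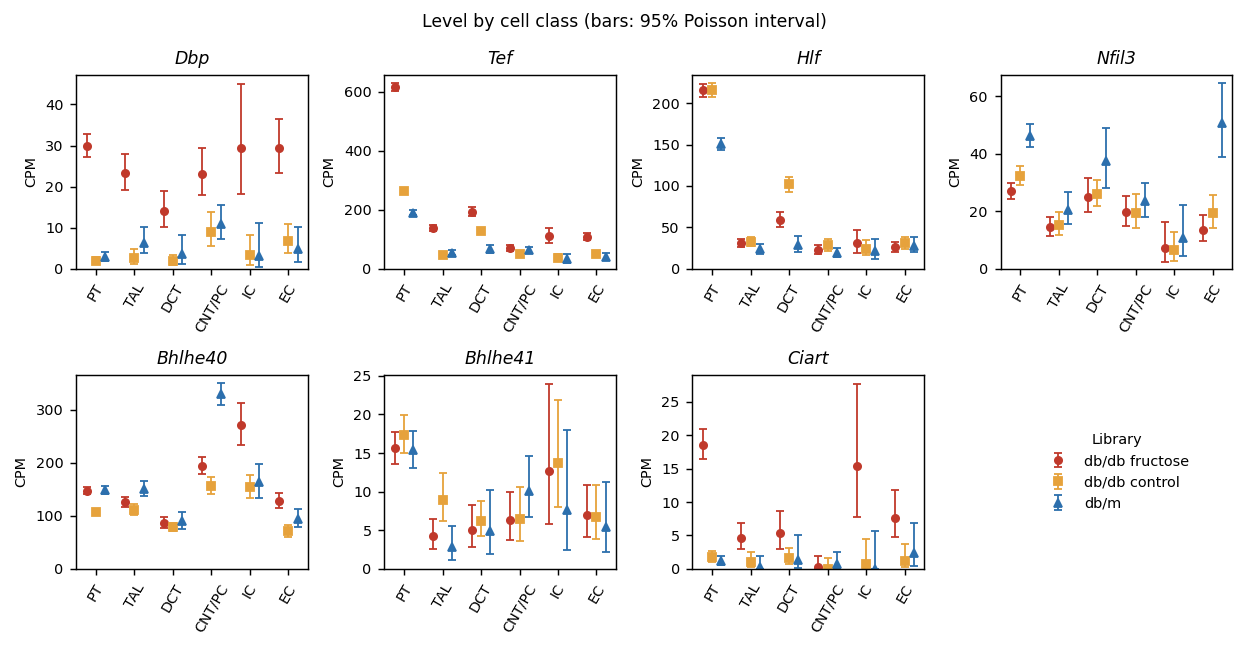
CPM of each gene in 6 cell classes (PT, proximal tubule; TAL, thick ascending limb; DCT, distal convoluted tubule; CNT/PC, connecting tubule and principal; IC, intercalated; EC, endothelium), with 95% Poisson intervals, 1 library per group. Dbp in the fructose library lay above both other libraries in every class, while Tef and Hlf were highest in the proximal tubule of each library.

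Ciart could be compared between the diets in 5 classes and was higher with fructose in each, from 3.35-fold in distal convoluted tubule-like cells to 19.2-fold in intercalated-like cells. The last value rests on 11 counts against 1. Thick ascending limb-like cells gave 4.60 CPM in db/db fructose, 1.02 in db/db control and 0.354 in db/m, and endothelium-like cells 7.69, 1.26 and 2.33 CPM. Connecting tubule and principal-like cells held 1, 0 and 2 counts and so allow no ratio. Those cells thus had Dbp counts in every library and nearly no Ciart counts in any.

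Tef was at least 1.5-fold higher with fructose in 5 of the 6 classes, the exception being connecting tubule and principal-like cells at 1.39-fold, and its largest ratio was 3.05-fold in thick ascending limb-like cells. There it stood at 139, 45.5 and 54.8 CPM in db/db fructose, db/db control and db/m. Proximal cells had the highest Tef level in each library. Distal convoluted tubule-like cells came next with 193, 127 and 66.9 CPM, though in db/m their interval overlapped that of connecting tubule and principal-like cells. Barcodes of high UMI count, described further below, held 219 of 577 distal convoluted Tef counts with fructose and 346 of 636 in db/db control. Without such barcodes in any class, distal convoluted cells stood at 137, 72.5 and 67.8 CPM. Thick ascending limb-like cells then had 142 CPM with fructose, and connecting tubule and principal-like cells 68.0 CPM in db/m. Distal convoluted cells thus kept their place in db/db control only. Hlf had its highest level in the proximal class of each library too, and outside that class and the distal convoluted tubule it lay between 19.5 and 32.6 CPM, with neighbouring classes overlapping.

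RNA free in the droplet fluid may give a share of these values, which was estimated from marker genes only. Proximal marker genes in lymphocyte-like cells, which should lack them, had a summed level equal to 40.4% of that over the whole library in db/db fructose, 37.1% in db/db control and 33.0% in db/m, from 42, 32 and 48 cells, or 6310, 4573 and 4910 CPM. The same markers were lower still in connecting tubule and principal-like cells (3747, 3936 and 3477 CPM) and endothelium-like cells (4344, 4241 and 4428 CPM), so the estimate is too high for those classes. Applied to Hlf this share gives 47.1, 41.2 and 28.9 CPM, and Hlf lay below that in the thick ascending limb, connecting tubule, intercalated and endothelial classes of every library. For Tef it predicts 137, 50.2 and 39.5 CPM, and the levels in intercalated cells (111, 37.8 and 32.3 CPM) lay below it in every library. Tef in thick ascending limb-like cells with fructose, 139 CPM, stood at the predicted level. The class values average unlike clusters. In thick ascending limb cluster 5, Tef was at 219, 69.1 and 94.2 CPM, above the estimate in each library, and in cluster 7 at 73.4, 29.0 and 37.3 CPM, below it. Endothelial cluster 11 gave 141, 68.1 and 45.9 CPM and cluster 10 gave 83.4, 32.7 and 37.2 CPM. How much of the Tef and Hlf counts outside the proximal tubule comes from free RNA was not tested further. Nfil3 in intercalated-like cells was below its prediction in every library. The prediction for Dbp was 10.7, 1.15 and 1.81 CPM, below the measured level in all 6 classes of each library. The interval of the level still included it in distal convoluted cells of every library, with fructose at 10.1 to 19.0 CPM. It was also included in db/db control proximal (1.13 to 2.79 CPM) and intercalated cells, and in db/m intercalated and endothelial cells. In those cells Dbp was thus not separated from the prediction. Ciart with fructose, predicted at 4.49 CPM, stood at that level in thick ascending limb-like cells, above it in intercalated-like and endothelium-like cells, and at 0.350 CPM (interval 0.00886 to 1.95) in connecting tubule and principal-like cells, well under it. With free RNA subtracted at this one share for all classes, the ratio between the diets turned round for Ciart in the thick ascending limb (-2.30) and distal convoluted tubule (-0.37) and for Tef in the distal convoluted tubule (-0.39). In the thick ascending limb, connecting tubule, intercalated and endothelial classes it took Tef to 0 in at least 1 db/db library. No Tef ratio between the diets was left in those classes. Bhlhe40 lay above its prediction of 54.5, 35.5 and 51.8 CPM in all 6 classes.

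**Figure D3:**
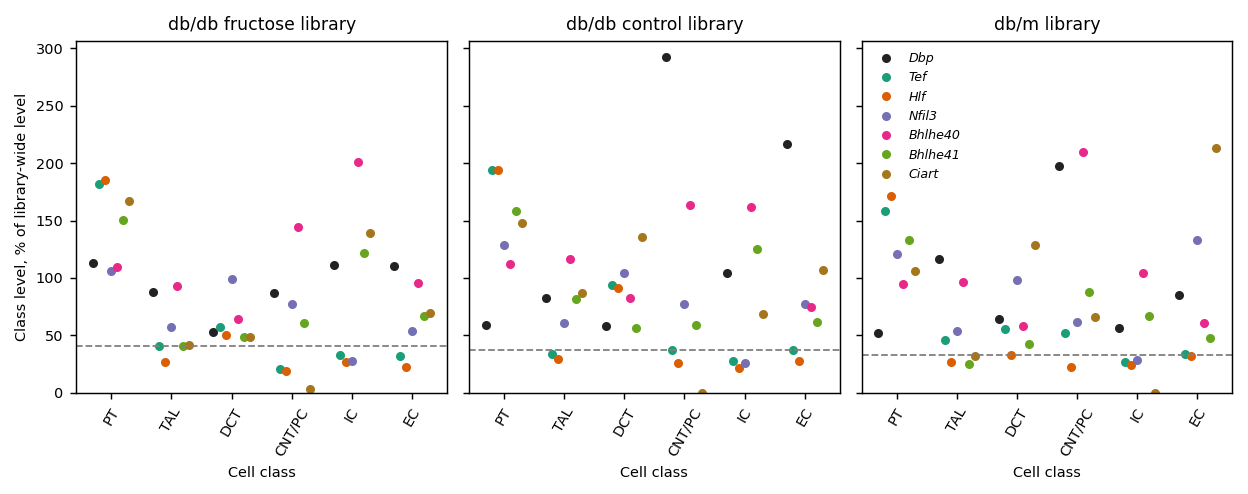
Level of each gene in 6 classes as a percentage of its level over all kept cells of the same library, for db/db fructose (left), db/db control (middle) and db/m (right); the dashed line is the free RNA estimate of 40.4%, 37.1% and 33.0%. Hlf fell on or under the line outside the proximal and distal convoluted tubule, and Bhlhe40 stayed above it in every class.

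Distal convoluted tubule-like cells, which express the thiazide-sensitive transporter Slc12a3, were the class where Hlf differed most between libraries. Hlf was at 58.8, 102 and 28.9 CPM in db/db fructose, db/db control and db/m, so db/db control was highest and db/m lowest, the last at its free RNA estimate. The log2 ratio was -0.79 between the diets and 1.82 between the genotypes, where Tef gave 0.92. A few barcodes with 10000 or more UMIs, up to 100953, 109386 and 11794 in one barcode, weighed on these values. They numbered 16, 28 and 3 and held 66 of 176, 268 of 511 and 1 of 41 Hlf counts. Their summed proximal markers stood at 18091, 20545 and 12382 CPM, against 10506, 9572 and 10856 CPM in the other cells of the class and 24612, 19050 and 22735 CPM in the proximal class. Without them Hlf was at 42.1, 60.7 and 28.8 CPM, with log2 ratios of -0.53 between the diets and 1.07 between the genotypes, and the first no longer passed 1.5-fold. Tef without them was at 137, 72.5 and 67.8 CPM, and its log2 ratio was 0.92 between the diets and 0.10 between the genotypes. In the fructose library these Tef and Hlf levels were at the free RNA estimate of 137 CPM and under that of 47.1 CPM. Bhlhe40 in this class had log2 ratios of 0.14 between the diets and -0.20 between the genotypes, and without these barcodes 0.49 and -0.77, the second then past 1.5-fold. All 18 proximal markers were detected in this class in each library, at 46.6%, 61.9% and 47.9% of their summed level in the proximal class.

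Bhlhe40, the E-box repressor gene, which low oxygen also induces in other tissues, stood at 194 CPM in db/db fructose, 156 CPM in db/db control and 329 CPM in db/m in connecting tubule and principal-like cells. Db/m was clear of both db/db libraries there, and the log2 ratio of db/db control to db/m was -1.08. Without barcodes of 10000 or more UMIs, of which this class held 34, 4 and 37, it was -0.90. In intercalated-like cells the order was another, with 271 CPM in db/db fructose, 154 CPM in db/db control and 163 CPM in db/m. That class pooled clusters filled unevenly, with 312, 323 and 96 cells in cluster 14 and 61, 138 and 86 in cluster 18. Bhlhe40 was at 341, 225 and 190 CPM in cluster 14 and 154, 104 and 154 CPM in cluster 18. Db/db control and db/m rested on 117 and 31 counts in cluster 14 and on 75 and 75 in cluster 18. No intervals were computed for these clusters, so the order of those libraries within them is not read. Endothelium-like cells gave 129, 71.3 and 94.9 CPM, so that intercalated and endothelial cells were the classes where Bhlhe40 passed 1.5-fold between the diets. In intercalated-like cells 18 of 22 measured immediate-early and heat-shock genes, which tissue dissociation induces, were also at least 1.5-fold higher with fructose, beside 29.9% of all genes there. In endothelium-like cells 0 of 23 were, beside 10.0%. Their part was not tested.

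Nfil3 was lower in db/db control than in db/m cells in all 6 classes, but the interval lay below 0 in only 3. Those were the proximal, distal convoluted and endothelium-like classes. It was lower by at least 1.5-fold in endothelium-like cells and in intercalated-like cells, where 8 and 7 counts gave an interval that spans 0. Endothelium-like cells gave 13.5 CPM in db/db fructose, 19.3 CPM in db/db control and 50.6 CPM in db/m (37, 46 and 65 counts), a log2 ratio between genotypes of -1.39 with an interval of -1.97 to -0.82. Both endothelial clusters had that order, at 15.4, 19.6 and 52.1 CPM in cluster 10 and 11.1, 19.0 and 48.0 CPM in cluster 11. Of 23 dissociation-induced genes measured in endothelium-like cells, 0 were higher and 11 lower in db/db control than in db/m, beside 7.52% and 10.9% of all genes, and their part was not tested. Mononuclear phagocyte-like cells, in which Nfil3 is known as a regulator of innate immune cells, gave 112, 62.0 and 75.4 CPM, from 89, 49 and 21 counts. Bhlhe41 held 35 counts or fewer in every class but the proximal. Its log2 ratio between the diets was -1.08 in thick ascending limb-like cells, at 4.20, 8.90 and 2.83 CPM in db/db fructose, db/db control and db/m, where the levels of db/db fructose and db/m were at the free RNA estimate of 4.20 and 3.79 CPM or below.

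Counted over the other 5 classes, 2 of 5 measured genes were higher with fructose in the thick ascending limb, beside 9.82% of all genes measured in that class, and 0 lower, beside 1.32%. In the distal convoluted tubule 2 of 5 were higher and 1 lower, beside 5.73% and 2.09%. In connecting tubule and principal-like cells 1 of 5 was higher and 0 lower, beside 18.9% and 2.54%. Intercalated-like cells had 4 of 6 higher and 0 lower, beside 29.9% and 6.7%, and endothelium-like cells 3 of 5 higher and 0 lower, beside 10.0% and 2.39%. Between the genotypes, 0 of 4 passed in either direction in the thick ascending limb, beside 8.02% higher and 4.1% lower. In the distal convoluted tubule 2 of 4 were higher and 0 lower, beside 16.0% and 9.8%. In connecting tubule and principal-like cells 0 of 6 were higher and 2 lower, beside 6.83% and 14.6%. In intercalated-like cells 1 of 5 was higher and 1 lower, beside 11.1% and 13.3%, and in endothelium-like cells 0 of 4 were higher and 1 lower, beside 7.52% and 10.9%. Both comparisons share the db/db control library.

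**Figure D4:**
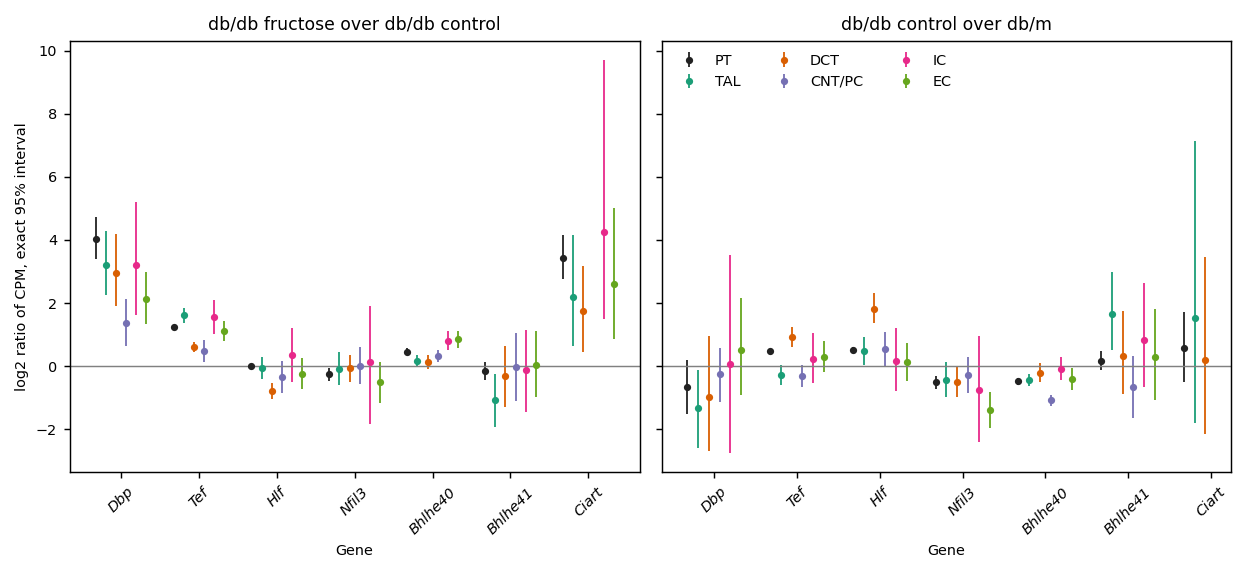
Log2 ratio of CPM with exact 95% intervals for each gene in 6 classes, for db/db fructose over db/db control (left) and db/db control over db/m (right); pairs with 3 or fewer counts in both libraries, or 0 in one, are left out. Dbp and Ciart lay above 0 in all classes shown on the left, while Hlf, Nfil3 and Bhlhe41 lay near 0 in most.

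The core clock genes, from a list of 15, gave the setting in proximal tubule-like cells. Between the diets 14 were measured, of which 6 were higher and 4 lower by 1.5-fold, beside 11.8% and 1.38% of all genes, with a median log2 ratio of 0.35. Nr1d1 (REV-ERB alpha), a repressor switched on through E-boxes, was at 104, 19.5 and 11.5 CPM in db/db fructose, db/db control and db/m. Per3 had a log2 ratio of 2.23 between the diets, and Nr1d2 was at 98.7, 30.6 and 16.0 CPM. These repressors were thus high in the fructose library, as Dbp and Ciart were. Among the activators Clock was at 105 CPM in db/db fructose and 107 CPM in db/db control, a log2 ratio of -0.03, and Rora gave 0.33. Arntl was at 19.8, 46.2 and 40.8 CPM, and its partner Npas2 had a log2 ratio of -1.33 between the diets, so both were low with fructose. Cry1, a late repressor, gave -1.65, at 3.46, 10.9 and 17.8 CPM. Nr1d1, Nr1d2 and Per3 were higher with fructose in 6 of 6 classes, and Arntl was lower in 6 of 6. Between db/db control and db/m, 2 core genes were higher and 3 lower of 14 measured, beside 6.74% and 11.8% of all genes. The higher ones were Nr1d2 (log2 0.93) and Nr1d1 (0.76), and Per2 (-0.89) and Cry1 (-0.71) were among the lower. Nr1d1 was higher in db/db control than in db/m in all 6 classes. The Dbp ratio was at least 1.5-fold lower in 3 of them, with an interval below 0 in 1. In those 3, the proximal, thick ascending limb and distal convoluted classes, Dbp was under 10 CPM in both libraries. It was thus not measured there by the rule used here and was not called.

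**Figure D5:**
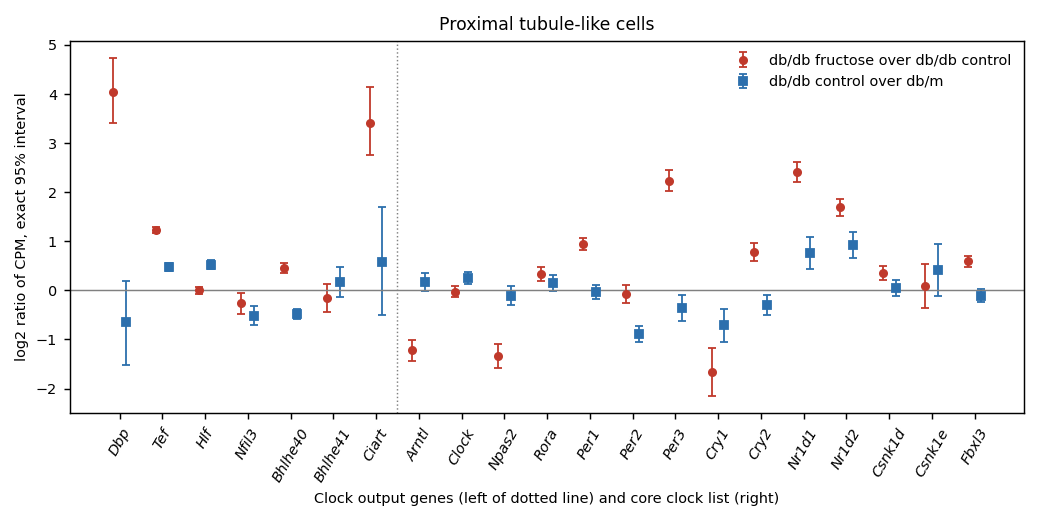
Log2 ratio of CPM in proximal tubule-like cells with exact 95% intervals, for the 7 clock output genes (left of the dotted line) and 14 core clock genes (right), in db/db fructose over db/db control (red circles) and db/db control over db/m (blue squares). Between the diets, Dbp, Ciart, Tef, Per3, Nr1d1 and Nr1d2 lay above 1 and Arntl, Npas2 and Cry1 below -1.

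Genes known from other work as clock-controlled or PAR bZIP targets, a list of 16, were mixed in the same cells. Between the diets 4 were higher and 3 lower of 14 measured, beside 11.8% and 1.38% of all genes, with a median of 0.28. Alas1, the first enzyme of haem synthesis and a known PAR bZIP target in mouse liver, was at 290.2 CPM in db/db fructose, 110.1 in db/db control and 268 in db/m. The fructose and db/m libraries were thus both above db/db control. Coq10b had a log2 ratio of 1.24 between the diets and Tsc22d3, which glucocorticoids induce, 1.03, whereas the sodium channel subunit gene Scnn1a gave -0.96 and the kinase gene Sgk1 -0.95. Between the genotypes 5 were higher and 3 lower of 15, beside 6.74% and 11.8%, led by Sgk1 (1.86, at 318 CPM in db/db control and 87.9 in db/m), Tspan4 (-1.33), Alas1 (-1.28), Pdk4 (1.24) and Scnn1a (1.08). Of 14 hypoxia-responsive genes, 12 were measured between the diets and only Egln3 passed (0.74), and 0 of 11 passed between the genotypes.

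The same dissociation-induced genes moved with the diets in proximal cells as well. Of 25, 20 were measured in proximal cells and 11 were higher and 0 lower with fructose, beside 11.8% and 1.38% of all genes, led by Egr1 (1.38), Fosb (1.22), Junb, Fos (1.19) and Ier2 (1.17), with a median of 0.66. In endothelium-like cells 0 of 23 measured were higher and 0 lower between the diets, beside 10.0% and 2.39% of all genes, with a median of 0.24. Between the genotypes 2 were higher and 6 lower of 21 in proximal cells, beside 6.74% and 11.8%, with Hsp90aa1 at -1.14, Fosb at -1.10, Ier3 at 0.85, Klf4 at -0.80 and Klf2 at 0.73. Their part in the values of the clock output genes was not tested.

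Likeness of pattern was described by Pearson's r of log2(CPM + 5) over 21 units, 7 classes in 3 libraries, among 8996 genes. The units share libraries, depth and any free RNA, so the values are descriptions. Over plain levels Dbp was most like Nr1d1 (0.73), then Rmnd5a and Rab3gap2, and Ciart most like Per3 (0.85), then Scfd2 and Gm13936. Tef was most like Car14 (0.94), then Slc23a1 and Errfi1, and Hlf most like the proximal phosphate transporter Slc34a1 (0.98), then Mlxipl and G6pc. Nfil3 was most like Slc25a45 (0.80), then Fads1 and Amot; Bhlhe40 like Ddit3 (0.91), then Alad and Tmbim6; and Bhlhe41 like Fndc3a (0.88), then Ncor1 and Ugdh. With each class mean subtracted, so that only differences between libraries remain, Dbp was most like Wac (0.96), Ciart like Pclo (0.94), Tef like Cdc37l1 (0.96) and Hlf like Pyroxd2 (0.92). Nfil3 was then most like Hsph1 (0.85), Bhlhe40 like Slc22a28 (0.80) and Bhlhe41 like Zbed4 (0.87).

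On mm10, Dbp (ENSMUSG00000059824) lies at chr7:45705088-45710203, where Sphk2 overlaps it on the opposite strand, and Ciart (ENSMUSG00000038550) at chr3:95878503-95882251, overlapped by C920021L13Rik. Tef (ENSMUSG00000022389) lies at chr15:81802421-81826863 with Gm17597, and Bhlhe40 (ENSMUSG00000030103) at chr6:108660629-108666925 with 0610040F04Rik, again on opposite strands. Hlf (ENSMUSG00000003949, chr11:90336536-90390895), Nfil3 (ENSMUSG00000056749, chr13:52967209-52981073) and Bhlhe41 (ENSMUSG00000030256, chr6:145858243-145865558) overlap no other counted gene. Whether the counting used strand is not given in the sources used here, so reads of such pairs cannot be told apart with certainty. Sphk2 stood at 29.1 CPM in db/db fructose proximal cells, 19.0 in db/db control and 26.3 in db/m, and C920021L13Rik at 0.705, 2.09 and 0.628 CPM.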

How the data were processed

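UMI counts per gene and barcode were deposited by the authors for 3 libraries. The submitters' processing notes name Cell Ranger 6.0.0 and mm10. The members and gene lists were chosen with earlier results of these data known. Barcodes under 200 genes or over 50% mitochondrial UMIs were left out. Scrublet in scanpy 1.11.5 called 15.2%, 7.77% and 0% of barcodes by itself in db/db fructose, db/db control and db/m, so the highest scores were removed at 0.8% per 1000 barcodes, 16.3%, 21.2% and 10.8%. Some doublets will remain. Cells were clustered together without integration (2000 variable genes, 30 components, 15 neighbours, leidenalg at resolution 1) and named from markers of 20 classes. The naming, the sub-clustering of mixed clusters, the within-cluster values and the limit of 10000 UMIs were set after the clusters were seen, and rebuilt names may differ from the study's. Counts were summed per class and library as CPM, with exact Poisson intervals, exact conditional binomial intervals for ratios and Clopper-Pearson intervals for shares, at 95%. A gene was measured at 10 CPM in either library and called at 1.5-fold; against a count of 0, ratios used 3 counts as the floor. All 7 genes were compared in each of the 6 classes, and up to 5 genes of each list are named by size of ratio in proximal cells, and 3 most alike genes. With 1 library per group there was no test. Of the core clock list, 1 gene is counted but not reported here. The ratio script was checked on simulated counts.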

Additional observations from a re-analysis of the deposited data

Results flagged for a closer look

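Barcodes over 50% mitochondrial UMIs, 1049 in the db/db fructose library, 5237 in db/db control and 2250 in db/m, were left out of every comparison above. Tef was present in them. Per 1000000 non-mitochondrial UMIs it stood at 190.2 in db/db fructose, against 88.8 in db/db control and 87.1 in db/m, from 175, 346 and 175 counts, which is what drew attention to it: a signal in data not used above that exceeds the level in both control libraries. Dbp in the same barcodes stood at 19.6, 3.08 and 7.96 from 18, 12 and 16 counts, so both genes were highest in the fructose library there as well. Ciart was too, at 5.43, 1.03 and 0.996 from 5, 4 and 2 counts. The other members had their lowest value with fructose. Hlf was at 57.6, 110 and 118 from 53, 428 and 237 counts, and Nfil3 at 15.2, 23.3 and 34.3 from 14, 91 and 69. Bhlhe40 was at 88.0, 96.2 and 132 from 81, 375 and 266 counts, and Bhlhe41 at 9.78, 12.3 and 12.4 from 9, 48 and 25. No intervals were computed for these barcodes, so small steps between libraries are not read as an order. These barcodes were not split by cell class.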

How the results depend on the processing

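Values here are log2 ratios in proximal tubule-like cells unless another class is named, and the cause of each shift was not tested. Between the diets (db/db fructose over db/db control), Tef was 1.16 with at most 30% mitochondrial UMIs, 1.34 without doublet removal, 1.04 without mitochondrial genes in the total, 0.96 with size factors and 0.88 as a mean over clusters, each past 1.5-fold. In those last 3 settings Hlf was -0.18, -0.27 and -0.25. Bhlhe40 was 0.28 without mitochondrial genes, size factors gave 0.19 for it and -0.53 for Nfil3, and the cluster mean gave -0.50 for Bhlhe41. Free RNA subtraction gave 4.88 for Dbp. Between the genotypes (db/db control over db/m), Tef was 0.34 without doublet removal, 0.60 with free RNA subtracted and 0.0043 as the cluster mean. Hlf was 0.42 and 0.62 under the first and second of these, and Bhlhe40 -0.59, -0.34 and -0.77 under all 3. Of these genotype values, 0.60, 0.62, -0.59 and -0.77 are past 1.5-fold, which the unaltered ones are not. Free RNA subtraction reversed 3 values between the diets outside the proximal tubule: Ciart in the thick ascending limb (-2.30) and distal convoluted tubule (-0.37), and Tef in the distal convoluted tubule (-0.39). Core clock genes higher with fructose numbered 3 at a fold of 2, and those lower 0 at a minimum of 50 CPM. Between the genotypes 0 were higher at that minimum, and 0 were higher and 0 lower at a fold of 2. Over all alternatives, 114 proximal ratios moved by less than the counting interval and 21 by more, and in other classes 552 moved by less, 27 by more and 3 reversed. Ratios left without a value are not in these numbers. Free RNA subtraction gave only 35, 9 and 3 of those in other classes. It left Tef at 3.23 and 0 CPM in thick ascending limb-like cells of db/db fructose and db/db control. Connecting tubule and principal-like cells gave 0 and 0.189 CPM, and intercalated-like and endothelium-like cells 0 and 0. The cluster mean gave only 4 proximal ratios that moved by less and 5 by more. Counts limit Ciart and Bhlhe41 most, and no interval covers the variation between mice. The cluster mean and the limit of 10000 UMIs were chosen after the data were seen. No paired analysis was possible because each group has 1 library.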
